A study of Arabidopsis thaliana with 12 samples.

Results

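The transcripts described are 93 of the 4499 Arabidopsis thaliana transcripts that carry a TU code on the array and that stood highest at 12 or 16 h of a day sampled every 4 h. They were chosen by measured values. For each TU code the probe with the highest mean in the deposited table of log2 values was taken. That probe had to be well above background on all 12 arrays, which 1022 TU transcripts met. The means of the 6 time points had to span at least 1.5 on the log2 scale, which left 314, and the highest of these means had to fall at 12 or 16 h. The 93 members split into 56 with their peak at 12 h and 37 with theirs at 16 h. Because every time point entered the choice, the course of the members over time is described here and not tested.

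Leaf RNA came from 30-day-old Col-0 plants, the reference accession, kept at 22 °C and 65% humidity under 145 µmol per m2 per s of light, with 8 h of light and 16 h of dark per day. The sample titles give 2 replicates each for light 0 h, light 4 h, light 8 h, dark 12 h, dark 16 h and dark 20 h, with no genotype or treatment that sets them apart. The series title names continuous light, while the titles and growth notes name light and dark, so the state of the lamps at 12, 16 and 20 h is not settled by the labels. Each sample was read on 1 one-colour Agilent array. Whether the replicates were separate plants is not stated in the labels. In RNA from whole leaf tissue, fewer cells of a type and less RNA per cell cannot be told apart.

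Long non-coding RNAs are transcripts that encode no long protein. Plants make them from stretches between genes, from the strand opposite a gene and from introns, and some follow the circadian clock, the internal timer that sets the daily course of many leaf transcripts. The clock of Arabidopsis works through repressors expressed in turn. CCA1 and LHY act in the morning, the pseudo-response regulators PRR9, PRR7, PRR5 and PRR3 follow through the day, and TOC1 acts in the evening. No gene name or function is paired with the TU codes in the sources used here, so the members are described by code, place and course.

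The array held probes for 5154 transcript names, among them 479 locus codes and 173 microRNA precursors. Between 3983 and 7832 of 15013 probes were well above background per array, the highest number being on the second dark 16 h array. The arrays of 0 and 4 h lay on slide 1 and the 8 arrays of 8 to 20 h on slide 2, so slide and time cannot be told apart where a time point of one slide is set against one of the other. Of 8 marker genes of leaf, root and flower looked for, 0 had a probe, so the tissue could not be checked by markers. Probe sequences are not used here.

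Levels below are log2 of the scanner's processed signal relative to the 75th percentile of that array among the probes detected throughout, unless the deposited table is named. On this scale the members had a median level of -3.48, against -3.58 for all 1022 TU transcripts well above background throughout.

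The second dark 16 h array had a large part in the membership. In the deposited table it was the lowest of the 12 arrays for 37 of the 56 members highest at 12 h and the highest for 25 of the 37 members highest at 16 h. The shares over all 1022 TU transcripts are not given here, so these counts are not shown to be particular to the members. Over those 1022 this array lay a median of -0.88 from the first dark 16 h array. Without the second dark 16 h array, 53 of the 93 members still met the rule and 40 did not, 21 of them highest at 12 h and 19 highest at 16 h. Those 21 all dropped under the range threshold. Of the 19, 15 dropped under it and 8 had their highest mean at another time point, some doing both. Among the 53 kept, 4 of those highest at 12 h then had their highest mean at 16 h. No other single array left out cost more than 18 members, the number lost without the first dark 12 h array. In all, 35 members met the rule whichever 1 array was left out, 22 of them highest at 12 h and 13 at 16 h.

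**Figure D1:**
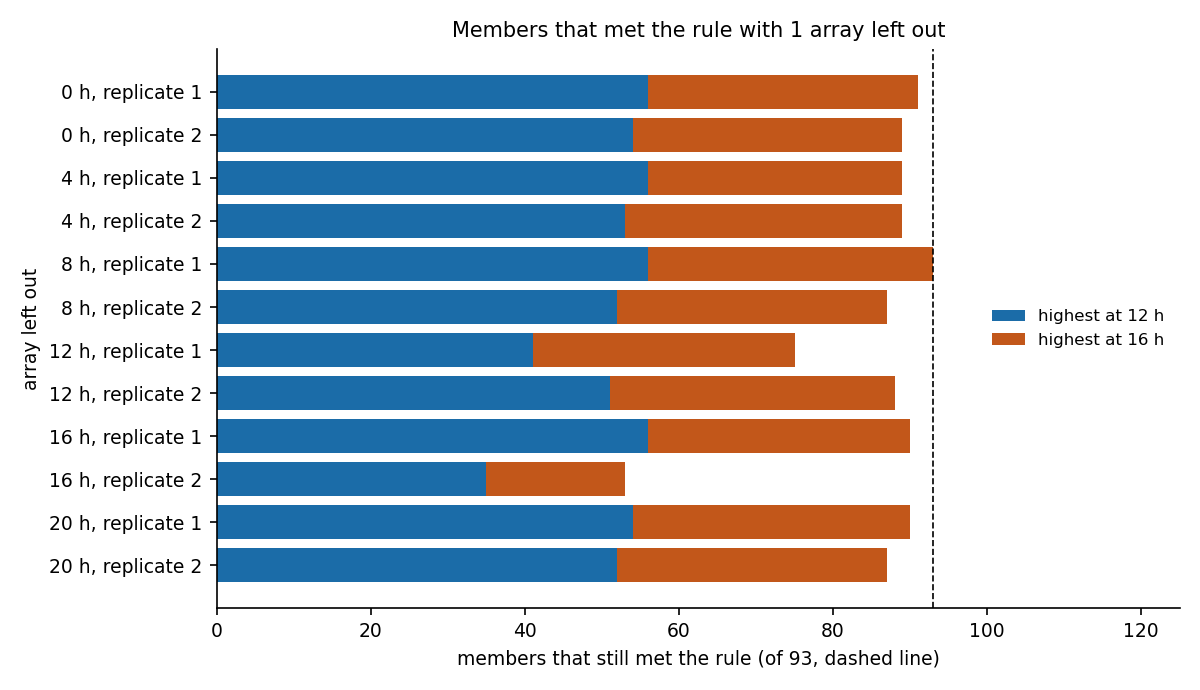
Number of members that still met the rule (x axis) after leaving out each array named on the y axis, split by the time point of the highest mean over all 12 arrays. The bar without the second 16 h array reaches 53 of 93, that without the first 12 h array 75, and the others lie between 87 and 93.

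The same array was placed differently by the deposited table and by the scanner scale. Its deposited values followed its scanner signals with a slope of 1.28, against 0.96 to 1.02 on the other 11 arrays. Across the 56 members highest at 12 h, the second minus the first dark 16 h array had a median of -1.30 in the deposited table and 0.21 on the scanner scale. Over all 1022 TU transcripts these medians were -0.88 and 0.28, of the same sign on each scale. For the 37 members highest at 16 h the medians were 0.56 and 0.73. In the deposited table the 16 h replicates of the 93 members lay a median of 1.1 apart, against 0.20 to 0.33 at the other time points.

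**Figure D2:**
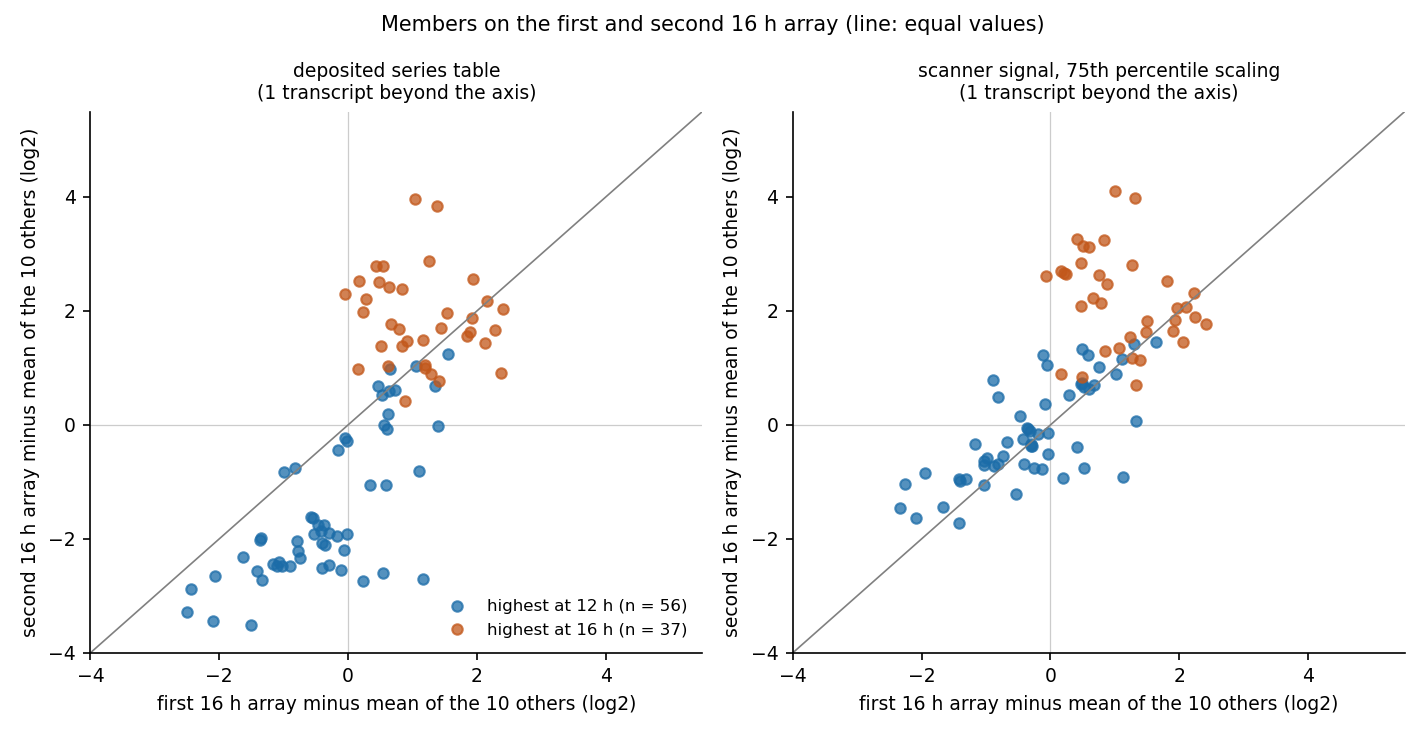
Each point is 1 of the 93 members, with its value on the first 16 h array (x axis) and the second (y axis), each minus the mean of the other 10 arrays, in log2 units. In the deposited table (left) most members highest at 12 h lie below the line of equal values, and on the scanner scale (right) they lie around it; members highest at 16 h reach further above the line than below it in both. In each panel 1 member lies beyond the axes.

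Within the members highest at 12 h, the commonest course in the deposited table was a peak at 12 h followed by the lowest point at 16 h, seen in 34 of 56. A further 13 were lowest on slide 1, 5 at 0 h and 8 at 4 h, while 8 were lowest at 20 h and 1 at 8 h. The low point at 16 h includes the second 16 h array, the lowest of the 12 for 37 of the 56. The share of all 1022 TU transcripts lowest at 16 h is not given here, so this low point is not shown to be particular to the members. On the scanner scale 49 of the 56 were again highest at 12 h, but 22 were lowest at 16 h and 15 at 20 h. The median of the 56 members stood at -2.59 and -3.0 on the 12 h arrays, above its values on the other 10 arrays, which ran from -3.87 to -3.48. Within slide 2 alone, 49 of the 56 spanned at least 1.5 in the deposited table. Members with peak and low point both on slide 2 do so by the rule. Only the 13 lowest on slide 1 could fall short, so this count does not separate time from slide.

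**Figure D3:**
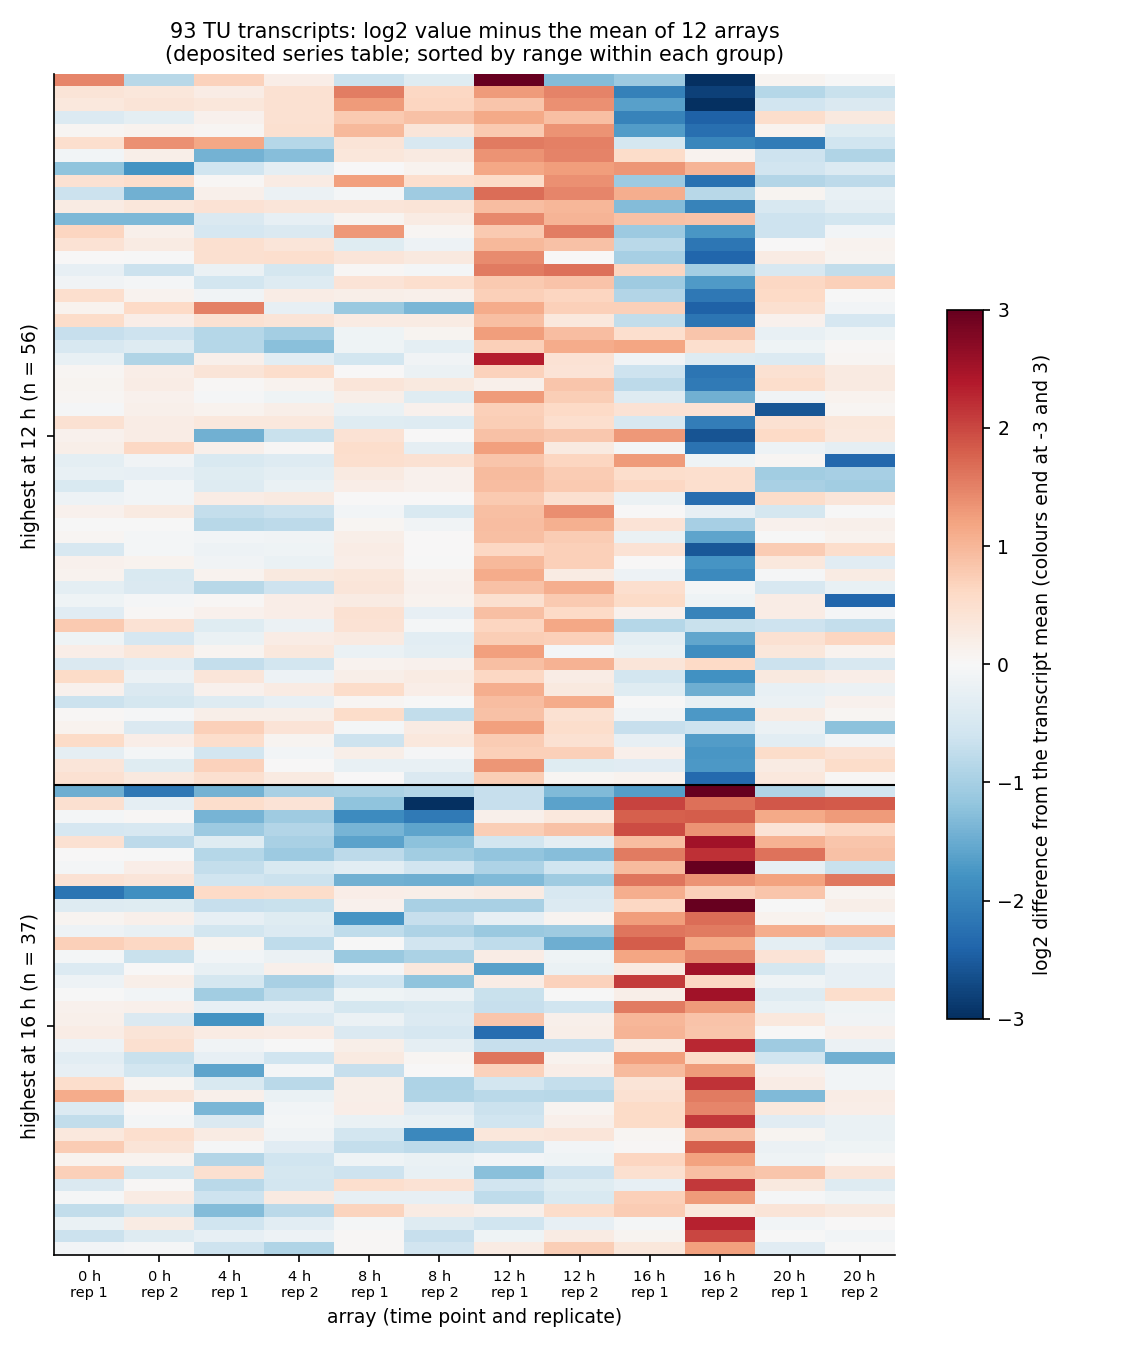
Rows are the 93 members, sorted by range within the group highest at 12 h (top) and at 16 h (bottom); columns are the 12 arrays in order of time. Colour is the deposited log2 value minus the mean of that row, blue below and red above. The column of the second 16 h array is blue for many rows at the top and red for most at the bottom.

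The 5 widest courses with a peak at 12 h all reached their lowest mean at 16 h. AT4TU045600 had levels of -2.99 and -3.02 at 0 h, -3.07 and -2.85 at 4 h, -1.81 and -2.72 at 8 h, -1.98 and -1.77 at 12 h, -5.20 and -4.32 at 16 h, and -4.32 and -4.08 at 20 h. Both 16 h arrays lay below all arrays of 0 to 12 h, whereas the 8 h and 12 h arrays overlapped. The 12 h mean exceeded that of 16 h by 2.88 ± 0.37 (SE, 2 arrays each), or 7.38-fold. AT4TU026070 ran closely alike, with -2.48 and -2.40 at 0 h, -2.47 and -2.31 at 4 h, -1.52 and -2.17 at 8 h, -1.88 and -1.31 at 12 h, -4.43 and -3.97 at 16 h, and -3.51 and -3.35 at 20 h. Its 12 h mean lay 2.61 ± 0.30 above its 16 h mean, and again the 8 h and 12 h arrays overlapped while both 16 h arrays were the lowest of the 12. With the mean of all probes of a transcript, these differences were 0.94 for AT4TU045600 and 0.64 for AT4TU026070.

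AT2TU060790 climbed through the day before the same drop. Its levels were -3.89 and -3.77 at 0 h, -3.33 and -3.03 at 4 h, -2.78 and -2.67 at 8 h, -2.37 and -2.71 at 12 h, -5.37 and -4.14 at 16 h, and -3.14 and -3.37 at 20 h. The 16 h arrays were the lowest of the 12, and the 20 h arrays were back among those of 4 h, with 2.21 ± 0.37 between 12 h and 16 h. AT3TU023260 stood at -2.56 and -2.0 at 12 h, against -4.94 and -3.85 at 16 h, with the 16 h and 20 h arrays overlapping and a difference of 2.11 ± 0.41 between 12 h and 16 h. Its other probes, well above background on 1 and 4 of the arrays, were highest at 8 h and at 16 h.

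AT2TU020110 headed the 12 h group by range and rested on 1 array. Its name places its start at position 6350017 of chromosome 2, in an array design whose header names the build ath1:Jan2004. It stood at 1.18 and -5.29 on the 12 h arrays, the highest and the lowest of all 12, against -4.78 and -5.09 at 16 h. The difference of 2.88 carried an SE of 1.73, and without the first 12 h array it became -0.36. The other probes of AT2TU020110, well above background on 11 and 0 arrays, were highest at 8 h and at 4 h. Between 12 h and 16 h they differed by -0.08 and 0.002 in the deposited table, against 3.88 for the probe used.

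The members highest at 16 h had less uniform low points. Of these 37 the low point fell at 12 h in 12, at 8 h in 10, at 4 h in another 10, at 0 h in 4 and at 20 h in 1, by the deposited values. On the scanner scale 32 of the 37 were again highest at 16 h. Their median level was -1.07 on the second and -2.33 on the first 16 h array, and between -3.78 and -3.16 on the other 10, so both 16 h arrays stood above the rest and the second further. Of the 37, 28 spanned at least 1.5 within slide 2 in the deposited table. By the rule, only the 14 lowest on slide 1 could fall short, so this count too does not separate time from slide.

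AT3TU007380 had replicates close together at every time point. Its levels were -1.26 and -1.11 at 0 h, -2.61 and -2.27 at 4 h, -3.15 and -3.34 at 8 h, -0.96 and -0.78 at 12 h, 0.56 and 0.53 at 16 h, and -0.02 and 0.10 at 20 h. No time point overlapped another, and the order ran from 8 h, the lowest, through 4, 0, 12 and 20 h to 16 h. The 16 h mean lay 3.79 ± 0.20 above that of 8 h (SE, 2 arrays each), or 13.8-fold. All 3 of its probes gave the course: the other probes, both well above background throughout, differed by 3.73 and 4.00 between these time points in the deposited table, against 3.82 for the probe used.

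AT3TU077970 was likewise lowest at 8 h and highest at 16 h. It had -4.33 and -4.32 at 0 h, -4.78 and -4.57 at 4 h, -5.34 and -5.36 at 8 h, -3.23 and -3.19 at 12 h, -1.99 and -1.89 at 16 h, and -3.62 and -3.40 at 20 h. Here too no time point overlapped another, and the 16 h mean exceeded the 8 h mean by 3.41 ± 0.18, or 10.7-fold, and by 0.97 under normexp with quantile normalization. A second probe of this transcript was well above background on all 12 arrays and was likewise highest at 16 h, with a difference of 1.99 against 3.14.

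AT4TU017870, whose name places its start at position 5351200 of chromosome 4, was high at both late time points. It stood at 2.31 and 2.30 at 0 h, 1.47 and 1.25 at 4 h, 1.55 and 1.26 at 8 h, 1.1 and 1.03 at 12 h, 3.72 and 4.43 at 16 h, and 3.68 and 3.19 at 20 h. The spot of the first 16 h array was marked as non-uniform by the scanner software and was left out of the fit, so the 16 h value there rests on 1 array and stood 3.37 ± 0.29 above 12 h, or 1.51 with the percentile taken over all probes. The 16 h and 20 h arrays lay above all earlier ones. Its other probes were well above background on 3 and 1 of the arrays, and were highest at 0 h and at 20 h.

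In AT1TU058770 and AT1TU095450 the size of the difference moved with single arrays. AT1TU058770 had -0.97 and -4.70 at 8 h, against 2.21 and 1.86 at 16 h and 2.17 and 2.20 at 20 h, so that its 8 h replicates lay further apart than its 16 h and 20 h arrays. Its highest mean on this scale was at 20 h. Its difference between 16 h and 8 h was 4.87 ± 1.00, a value that became 6.74 with only the second 8 h array kept and 3.0 with only the first. AT1TU095450 stood at -3.40 on the first and -0.73 on the second 16 h array, against -5.29 to -4.04 on the other 10 arrays. The first 16 h array was thus above the others as well, by less than the distance between the 16 h replicates, and the deposited range was 2.94 with the second 16 h array and 1.71 without it. Its difference between 16 h and 12 h was 3.14 ± 0.71 on the scanner scale, and 1.8 without the second 16 h array. The other probes of AT1TU095450, well above background on 0 arrays, were highest at 0 h and at 4 h. Between 16 h and 12 h they differed by -0.95 and 0.05 in the deposited table, against 2.94.

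**Figure D4:**
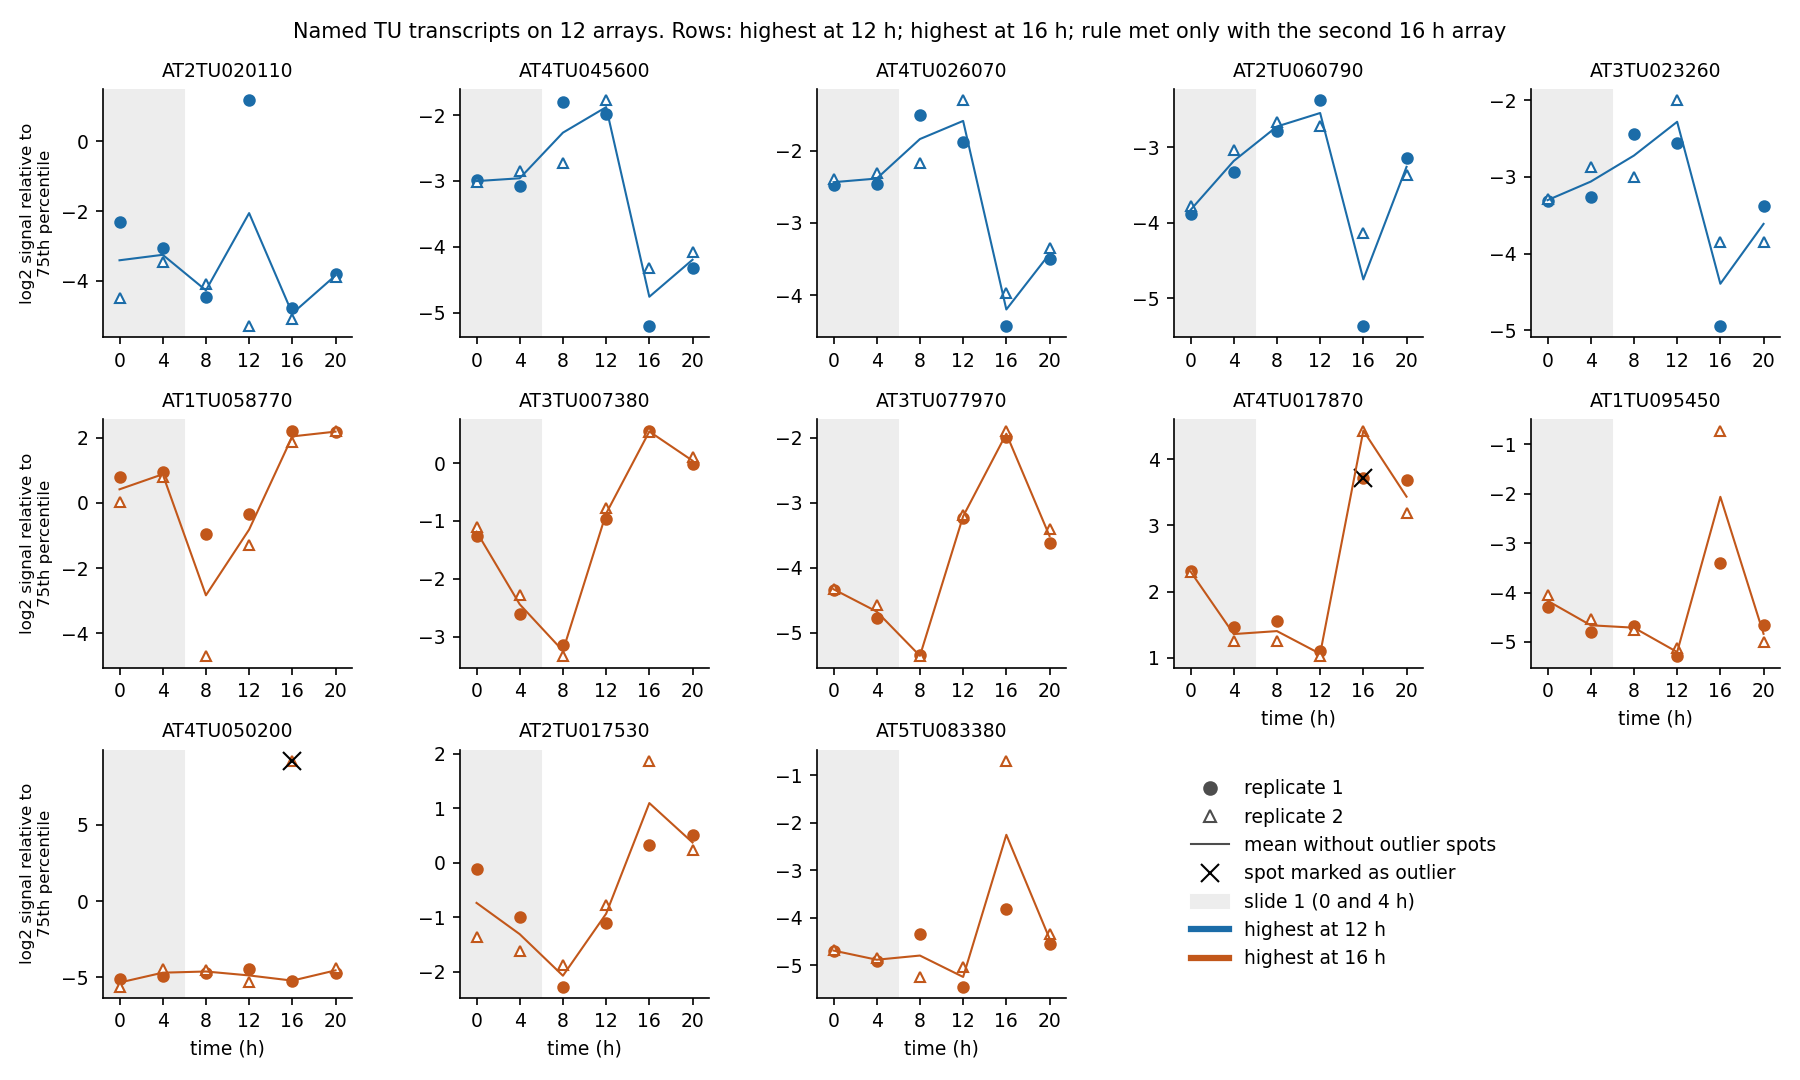
Level (log2 signal relative to the 75th percentile of the array, y axis) against time in h (x axis) for 13 named members, with both replicates as points and the mean as a line; grey marks slide 1. In the panels of AT3TU007380 and AT3TU077970 the replicates nearly coincide, while in those of AT2TU020110, AT4TU050200 and AT5TU083380 1 array stands apart from the other 11.

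The 3 widest courses that met the rule only with the second dark 16 h array were all highest at 16 h. AT4TU050200 had the widest deposited range of all members, 7.47, from 1 spot: its level was 9.19 on that array and between -5.60 and -4.38 on the other 11. The spot was marked as non-uniform by the scanner software and is left out of the fitted values, after which 16 h and 0 h differed by 0.13 ± 0.43. AT5TU083380 stood at -0.70 on that array and -3.81 on the first 16 h array, against -5.45 to -4.33 elsewhere. AT2TU017530 stood at 1.87 there and 0.32 on the first 16 h array, against 0.51 and 0.24 at 20 h, so that without the second array 20 h became its highest time point while the range stayed at 2.35.

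At the threshold of 1.5, the members just inside were AT1TU044910 and AT5TU079800, both with a deposited range of 1.51. Just outside lay AT5TU053810 with 1.498 and AT5TU090930 with 1.48. Without the second 16 h array these ranges were 0.60 and 0.81 for the members, and 0.64 and 1.64 for the non-members. On the scanner scale AT1TU044910 and AT5TU079800 were highest at 4 h.

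Other probes of the same transcripts entered the rule only in the choice of the probe with the highest mean, so each has a lower mean than the probe used. They come from the same arrays. Of the 93 members, 90 had 3 probes and 3 had 2, which left 183 other probes. For 33 members at least 1 other probe was well above background on all 12 arrays, 45 such probes in all. Of these 45, 29 had their highest mean at the same time point as the probe used, and the difference between the member's highest and lowest time points was above 0 in 35 and at least 1.5 in 20. For members highest at 12 h, 23 of 31 such probes shared the time point. For members highest at 16 h, 6 of 14 did. The other 138 probes were dimmer on at least 1 array, and 42 of them shared the time point. No share over all TU transcripts well above background stands beside these counts. All probes were read on the same second 16 h array, which in the deposited table lay a median of -0.88 from the first over the 1022 TU transcripts. The counts are therefore given as a description and do not back the members.

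**Figure D5:**
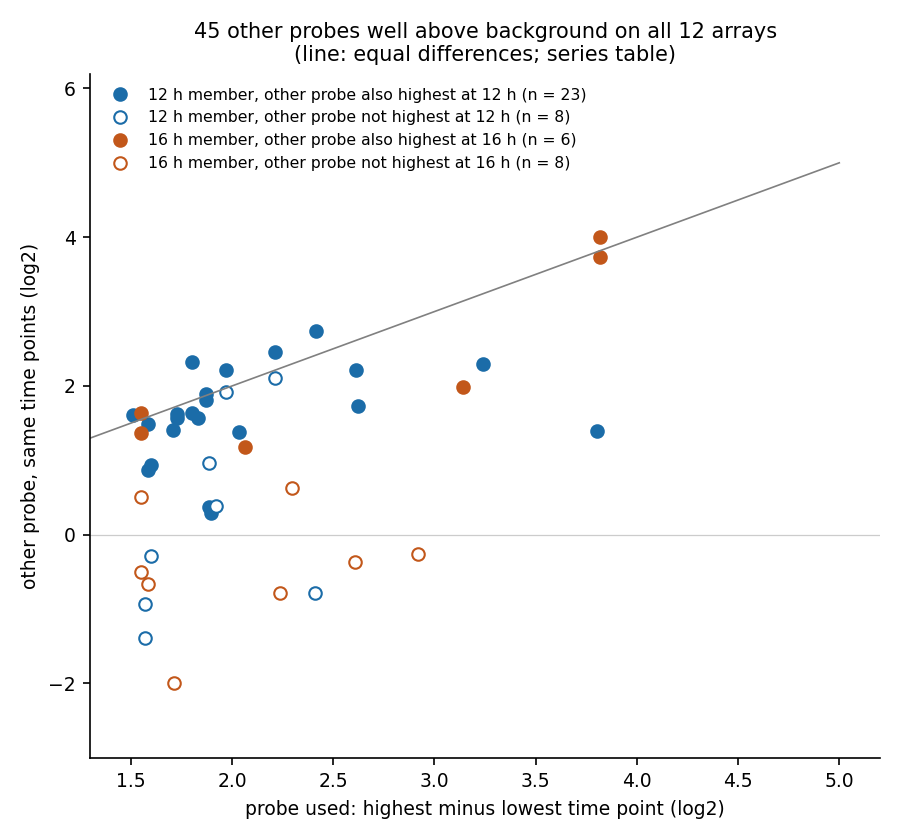
Each point is 1 of the 45 other probes well above background on all 12 arrays, with the deposited log2 difference between the member's highest and lowest time points for the probe used (x axis) and for the other probe (y axis). Filled points share the highest time point with the probe used (23 for members highest at 12 h and 6 for those highest at 16 h), and 10 points lie below 0.

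For 11 members every other probe well above background on all 12 arrays shared the highest time point and differed by at least 1.5 between the same time points. The group held 9 with a peak at 12 h and 2 with one at 16 h (AT3TU007380 and AT3TU077970), and 9 of the 11 met the rule whichever array was left out. Dimmer probes did not enter this count. Among these, that of AT3TU080800 (11 arrays) was highest at 16 h and differed by -0.31. Those of AT2TU060790 (10 arrays) and AT1TU048160 (8 arrays) were highest at 8 h and at 20 h. Those of AT5TU057660, AT1TU053970, AT3TU029400 and AT3TU077970 shared the highest time point. AT1TU048160 was among the 11, with -0.16 and -0.05 at 12 h against -2.46 and -2.23 at 16 h. Both 12 h arrays were its highest and both 16 h arrays its lowest, 2.25 ± 0.18 apart, and a second probe differed by 2.21 in the deposited table against 2.61 for the probe used. AT5TU011450 kept its level into the later time point, with 0.21 and -0.01 at 12 h, -0.24 and -0.21 at 16 h, and -1.91 and -1.93 at 20 h. Its 3 probes differed by 1.87, 1.82 and 1.89 between 12 h and 20 h in the deposited table. AT1TU090190 was highest at 12 h, with -2.93 and -2.95, and lowest at 4 h, with -4.52 and -4.45, on the other slide. Its other probes differed by 1.64 and 2.32 in the deposited table, against 1.8 for the probe used. AT5TU057660 stood at -2.90 and -3.15 at 12 h against -4.64 and -4.23 at 16 h, a difference of 1.41 ± 0.22 on the scanner scale. In the deposited table this difference was 2.41, and 2.74 for a second probe. These transcripts were named after their values were seen.

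By scaling, 8 members met the rule under each of 4 scalings (the deposited table, the 75th percentile over detected probes, the same over all probes, and normexp with quantile normalization) and also without the second 16 h array. Of these, 6 kept the same highest time point throughout, 5 at 12 h and 1 at 16 h. Of the 8, 3 lost the rule when another single array was left out, namely AT2TU020110, AT1TU030410 and AT1TU088310. AT5TU063590 and AT5TU002970 were among the 8 and were named after their values were seen. AT5TU063590 had 1.06 and 1.17 at 0 h, 0.98 and 0.81 at 4 h, 1.64 and 1.78 at 8 h, 3.01 and 2.72 at 12 h, 2.12 and 2.36 at 16 h, and 1.62 and 1.71 at 20 h, and its 12 h arrays lay above all others. Its 12 h mean was 1.97 ± 0.20 above that of 4 h. A second probe, also well above background throughout, was highest at 12 h. The remaining probe of AT5TU063590, well above background on 8 arrays, was highest at 8 h. Between 12 h and 4 h these probes differed by 1.38 and 0.17 in the deposited table, against 2.03 for the probe used. AT5TU002970 stood at 0.34 and -0.06 at 12 h against -2.54 and -2.52 at 0 h, with -0.24 and -0.21 at 16 h. Its first 12 h array lay above both 16 h arrays and its second above them by less than the distance between the 12 h replicates, and 12 h lay 2.66 ± 0.20 above 0 h, across the slides. Its other probes, well above background on 10 and 5 arrays, were highest at 8 h and at 20 h and differed by 0.33 and 0.48 in the deposited table, against 2.57.

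In place along the genome the members were spread over the 5 chromosomes given by their codes. They numbered 23 of 276 TU transcripts well above background throughout on chromosome 1, 16 of 198 on chromosome 2, 16 of 168 on chromosome 3, 17 of 148 on chromosome 4 and 21 of 232 on chromosome 5, or between 8.08% and 11.5%. The names of 930 TU transcripts, 14 members among them, also hold a start position, and on all 5 chromosomes the codes rise with it. Neighbouring codes therefore stand for neighbouring transcripts among those on the array. In 3 pairs, members lay next to each other in this order, and 2 of the pairs shared the highest time point.

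One of these pairs was AT1TU058760 and AT1TU058770, both highest at 16 h in the deposited table. AT1TU058760 had -1.33 and -1.38 at 0 h, -1.80 and -1.64 at 4 h, -1.98 and -2.16 at 8 h, -2.31 and -2.26 at 12 h, 0.42 and 0.32 at 16 h, and -0.08 and -0.24 at 20 h. Its 16 h arrays lay above its 20 h arrays and both above the rest, with 2.66 ± 0.18 between 16 h and 12 h. AT1TU058770, described above, was likewise high on all 4 arrays of 16 and 20 h, with no clear order between these time points. The only other probe of AT1TU058770 was well above background on 0 arrays and highest at 0 h. Between 16 h and 8 h it differed by 0.27 in the deposited table, against 4.97 for the probe used. The other probes of AT1TU058760, well above background on 1 and 7 arrays, were highest at 16 h and at 12 h. Between 16 h and 12 h they differed by 0.85 and -1.27 in the deposited table, against 2.67 for the probe used. The second pair, AT1TU030340 and AT1TU030410, starts at positions 8741204 and 8756252 of chromosome 1. AT1TU030340 was lowest at 16 h, with -2.93 and -2.95 against -1.18 and -1.83 at 12 h. It did not meet the rule without the second 16 h array or with the 75th percentile over detected probes. Its other probes, well above background on 9 and 0 arrays, were highest at 0 h and at 20 h. They differed by 0.26 and 0.34 between 12 h and 16 h in the deposited table, against 2.06. AT1TU030410 had 0.39 and 0.19 at 12 h against -0.41 and -2.98 at 20 h, so that 1 array made its low point, and its first 16 h array, at 0.75, lay above both 12 h arrays. In the third pair AT4TU026070 was lowest at 16 h, the time point at which AT4TU026120 was highest, with -4.23 and -2.34.

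Some clock genes on the array had their highest means at the same time points. PRR9 and PRR7 had their highest means at 12 h, 4.05 and 6.19. PRR5, PRR3 and TOC1 had theirs at 16 h, 5.16, 3.37 and 5.77. LHY and CCA1 were highest at 8 h, with means close to those at 4 h (8.01 against 8.21 for LHY, 6.48 against 6.55 for CCA1). At 0 h they stood at 4.09 and 0.84. These morning genes were thus highest at the last time point labelled light. How the labelled hours relate to the plants' own time of day was not tested. CHE, a repressor of CCA1, was highest at 20 h, but its arrays of 12, 16 and 20 h overlapped (means 4.21, 4.25 and 4.29). Over the 12 arrays, which share their scaling with the members, the median of the members highest at 12 h had r = 0.65 with PRR9, 0.41 with PRR7, 0.38 with CCA1, 0.25 with LHY, 0.23 with PRR5, 0.02 with CHE, -0.24 with PRR3 and -0.49 with TOC1. The median of those highest at 16 h had r = 0.78 with PRR3, 0.68 with PRR5, 0.58 with TOC1, 0.47 with PRR7, 0.39 with CHE, -0.03 with PRR9, -0.49 with CCA1 and -0.60 with LHY. PRR7 was thus a little more like the 16 h median than the 12 h median. Among 462 locus-coded transcripts, those most like the 12 h median were the non-coding RNAs AT4G39404 (r = 0.88) and AT3G06125 (r = 0.87) and COP1 (r = 0.87), which encodes a ubiquitin ligase that represses light responses. COP1 had its highest mean at 12 h, 4.27, and its lowest at 20 h, 3.37. Those most like the 16 h median were the non-coding RNAs AT5G24206 (r = 0.92), AT1G17255 (r = 0.91) and AT5G10278 (r = 0.90). AT5G24206 stood at -3.21 on the first 16 h array and -1.39 on the second, against -3.97 to -3.17 on the other 10 arrays, so that its first 16 h array overlapped them and the second alone stood apart. These values of r describe 6 time points in 12 arrays and carry no test.

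In limma's moderated F test over the 6 time points, fitted to 3306 transcripts with Benjamini-Hochberg adjustment, 34 of the 93 members passed an adjusted p of 0.05, 21 of those highest at 12 h and 13 of those highest at 16 h. Of all transcripts tested, 14.7% passed. These include dim transcripts, whereas members had to be well above background on all 12 arrays. With only the 1520 transcripts that met this, 49 of the 93 members passed beside 45.3% of all. With time points compared only within slides, 32 members passed beside 12% of all, and within slide 2 alone 19 passed beside 4.17%. In the deposited table both arrays of the highest time point lay above the other 10 for 43 of the 93 members, where 29.9% of the 1022 TU transcripts had this at their own highest time point. The rule used these time points, so none of these counts supports the choice of members.

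The same rule with other peak times gave 105 TU transcripts highest at 4 or 8 h and 116 highest at 20 or 0 h. Of those, 62 and 60 still met their rule without the second 16 h array, beside 53 of the 93 members.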

How the data were processed

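The authors scanned 1 array per sample with Agilent Feature Extraction 10.5.1.1, per the file headers, and deposited a linear intensity for every spot, with marks for background, saturation and outliers. The deposited series table holds log2 values with a common median of 1.37 per array. The steps behind it were not found in the labels or headers. The rule for members was applied to that table. Levels and fits used log2 processed signal minus the 75th percentile of each array over 2876 probes well above background on all 12 arrays, without outlier spots (0 to 9 per array). The scanner files have no mean signal, so normexp, with an offset of 50, used the median signal and background. Transcripts whose probe was detected in both replicates of at least 1 time point were tested.

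The fits used limma (version 3.58.1, R 4.3.3) and were tested on simulated data. Residual degrees of freedom were 6. SEs use the moderated spread. With 2 arrays per time point, precision is limited, and p-values measure the spread between arrays, which may be technical. Named TU transcripts were the 5 widest ranges at 12 h, the 5 widest at 16 h that met the rule without the second 16 h array, the 3 widest that did not, and 2 on each side of the threshold. Locus codes were the 3 with the highest r to each median. The members, lists and rules were chosen with earlier results of these data known. Gene symbols came from the gene table used here (TAIR10.1).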

Additional observations from a re-analysis of the deposited data

How the results depend on the processing

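The count of 93 members was 109 with the 75th percentile over detected probes (33 highest at 12 h, 76 at 16 h, 65 shared with the 93), 134 over all probes (126, 8 and 68), 85 with the mean of detected probes and 107 within slide 2. It was 17 under normexp (offset 50) with quantile normalization, and 474 when detection was asked at the highest time point only. Which step of the normexp processing lowered the count was not tested. A threshold of 1.0 gave 185, 2.0 gave 40, and leaving out both 16 h arrays gave 31, all at 12 h. With single arrays left out it lay between 70 (without the second 16 h array) and 156 (without the first 16 h array), and was 150 without the second 12 h array. The share highest at 16 h thus ran from 39.8% in the deposited table to 69.7% and 5.97% under the 2 percentile scalings; the cause was not tested.

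The count of 34 members that passed the F test, beside 14.7% of all transcripts, was 21 with the mean of all probes (10.9%) and 19 within slide 2 (4.17%), where fewer arrays entered. With single arrays left out it ran from 25 (without the first 0 h array, 8.02%) to 55 (without the first 16 h array, 38.8%). The other alternatives gave 23 (percentile over all probes, 10.9%) to 49 (detection on all 12 arrays, 45.3%). With a replicate block it was 35 (14.2%). Deviations of same-numbered arrays correlated at -0.11 to 0.19 (median 0.07) over 15 pairs of time points, 5 of them above 0.1. These values do not settle whether replicate numbers pair the samples. Among 270 recomputed differences of the 17 named TU transcripts, 201 moved by less than the replicate spread, 62 moved by more with the sign kept, and 7 changed sign. Those 7 were AT2TU020110 (-0.36) and AT5TU079800 (-0.44) without the first 12 h array, AT4TU050200 without the second 0 h array (-0.13), and, with the mean of all probes, AT3TU023260 (-0.17), AT4TU017870 (-0.27), AT4TU050200 (-0.32) and AT5TU079800 (-0.45). With single arrays left out these differences ran from -0.36 to 6.12 (AT2TU020110), -0.13 to 0.39 (AT4TU050200), 3.0 to 6.74 (AT1TU058770) and -0.44 to 1.33 (AT5TU079800). The depth limit of an array is signal over background, which bears most on the members with levels near -5.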
